A study of Mus musculus with 20 samples.

Results

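The levels of 10 genes that mark macrophages were examined in the quadriceps muscle of old mice after an acute injection of a stem cell secretome. They were found by matching their symbols to the Ensembl identifiers of the count table, and all 10 of 10 were among the 55416 genes listed. The set was split into 4 markers of resident macrophages (Lyve1, Folr2, Cd163 and Mrc1) and 6 general or recruited markers (Adgre1, Cd68, Csf1r, Lyz2, Cx3cr1 and Itgam). All 20 mice were wild-type male C57BL/6J aged 26 to 28 months, and each gave 1 RNA library from whole muscle taken 3 h after an injection that was given in a 4 h fasted state. Of these mice, 10 received 50 µl of 0.9% saline into the muscle (libraries 1 to 10), and 10 received the same volume of secretome, the mixture of factors released by human pluripotent embryonic stem cells that had partly differentiated (libraries 11 to 20). For its longer course of injections the study diluted the secretome in saline, and its methods do not state the dilution of the acute dose separately. The comparison asks whether macrophage transcripts differed between the treatments at this early time.

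Skeletal muscle holds a population of macrophages that live in the connective tissue between the fibres, and further macrophages arise there from blood monocytes that enter after injury. Both kinds depend on signalling through the receptor Csf1r, which binds the growth factors CSF1 and IL-34. Resident cells are typically recognized by receptors for hyaluronan (Lyve1), folate (Folr2), haptoglobin-haemoglobin (Cd163) and mannosylated glycoproteins (Mrc1). F4/80 (Adgre1), the lysosomal protein CD68 and lysozyme (Lyz2) mark macrophages in general, whereas the fractalkine receptor Cx3cr1 and the integrin CD11b (Itgam) are shared with monocytes. Lyz2 and Itgam are also made by neutrophils, and Lyve1 by lymphatic endothelium.

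Between 13286983 and 22987237 reads were counted on genes per library, with a median of 17016222.5 in saline and 19301561 in secretome. The share of reads on Ttn, which encodes titin, was 7.02% to 11.03% in libraries 1 to 5, 16.4% to 21.1% in libraries 6 to 15 and 14.2% to 14.7% in libraries 16 to 20. The share overlapped between the treatments in libraries 6 to 15, which hold 5 mice of each, and not outside that range. Every saline library had a lower number than every secretome library, also within libraries 6 to 15, so that library number and treatment cannot be told apart in these data. The neutrophil list stood apart in 3 libraries, where its 15 genes summed to 119.6 CPM (counts normalized for library size) in saline replicate 3, 69.1 in secretome replicate 7 and 131.8 in secretome replicate 8, against 5.15 to 31.5 CPM in the 17 others. As a check of the tissue, Myh4, the myosin of fast muscle fibres, had at least 288685 counts in every library.

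Per kilobase of exon, the level of Lyz2 in saline-injected muscle (mean 41.3 CPM per kb, range 27.0 to 82.6) lay above that of every other member. Mrc1 and Csf1r followed at the same mean of 3.46 CPM per kb, then Cd163 and Cd68 at 2.74, Adgre1 at 1.85, Lyve1 at 1.76 and Folr2 at 1.30 CPM per kb. Itgam (0.411 CPM per kb) and Cx3cr1 (0.189 CPM per kb) were the least abundant. From Mrc1 down, the ranges of neighbours in this order overlapped, and only Lyz2 was apart from the next gene. The read support differed in the same way, from 348 to 1932 counts per library for Lyz2 to 5 to 27 for Cx3cr1, which was the single member with too few counts to enter the test across genes. Lyve1, Folr2 and Itgam lie on chromosome 7, and no other pair of members shares a chromosome.

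For 4 members the sequence just upstream of the start is shown, to include an abundant resident marker, the resident marker whose secretome libraries fell into separate ranges, the most abundant general marker and the least abundant one tested. They are from RefSeq on GRCm38.p6, 5′ to 3′ on the strand of the gene, and capitals mark GAGGAA or its reverse complement TTCCTC, the core bound by PU.1, the factor on which the macrophage lineage depends. Mrc1 lies at chr2:14229272-14229391 (+), Cd163 at chr6:124304531-124304650 (+), Lyz2 at chr10:117282322-117282441 (-) and Itgam at chr7:128062520-128062639 (+).
Mrc1: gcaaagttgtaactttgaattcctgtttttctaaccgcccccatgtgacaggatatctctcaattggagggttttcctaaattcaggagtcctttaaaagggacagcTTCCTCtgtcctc
Cd163: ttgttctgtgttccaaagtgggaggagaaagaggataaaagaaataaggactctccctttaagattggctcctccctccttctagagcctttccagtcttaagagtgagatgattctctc
Lyz2: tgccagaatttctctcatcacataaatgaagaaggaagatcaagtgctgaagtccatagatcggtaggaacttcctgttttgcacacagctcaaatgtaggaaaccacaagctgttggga
Itgam: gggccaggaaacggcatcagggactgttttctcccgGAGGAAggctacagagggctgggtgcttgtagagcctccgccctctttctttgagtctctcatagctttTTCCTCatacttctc
Of 8 promoter windows of 250 bases that belong to 7 members (Folr2 has a pair), 3 held these letters on either strand, those of Mrc1, Itgam and Cd68, against 23.3% of all 32851 windows in the table. The matches began 180, 167 and 35 bases before the RefSeq start of Mrc1, 84 and 15 before that of Itgam and 225 before that of Cd68. The printed stretch of Mrc1 ends 22 bases before its RefSeq start, where the GENCODE gene begins, and that of Lyz2 likewise ends 49 bases before. A match describes letters in the window and is not a binding site that was measured. Lyve1, Adgre1 and Csf1r had no entry in the table.

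Across all 20 libraries, the mean of every member was lower after secretome than after saline, and none of the 9 tested members passed a 5% false discovery rate in edgeR's quasi-likelihood test. Over all genes 1 of 14471 passed (0.00691%). At an unadjusted p under 0.05, 3 of the 9 were lower, all of them general markers (Adgre1, Csf1r and Lyz2), beside 9.21% of all genes tested, and none was higher. The median log2 fold change of the 9 was -0.49, with -0.28 for the 4 resident and -0.58 for the 5 general markers, and -0.03 over all genes tested. In whole muscle, fewer cells of a type and less RNA per cell cannot be told apart. The contrast of treatments drawn for each gene shows these values side by side.

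**Figure D1:**
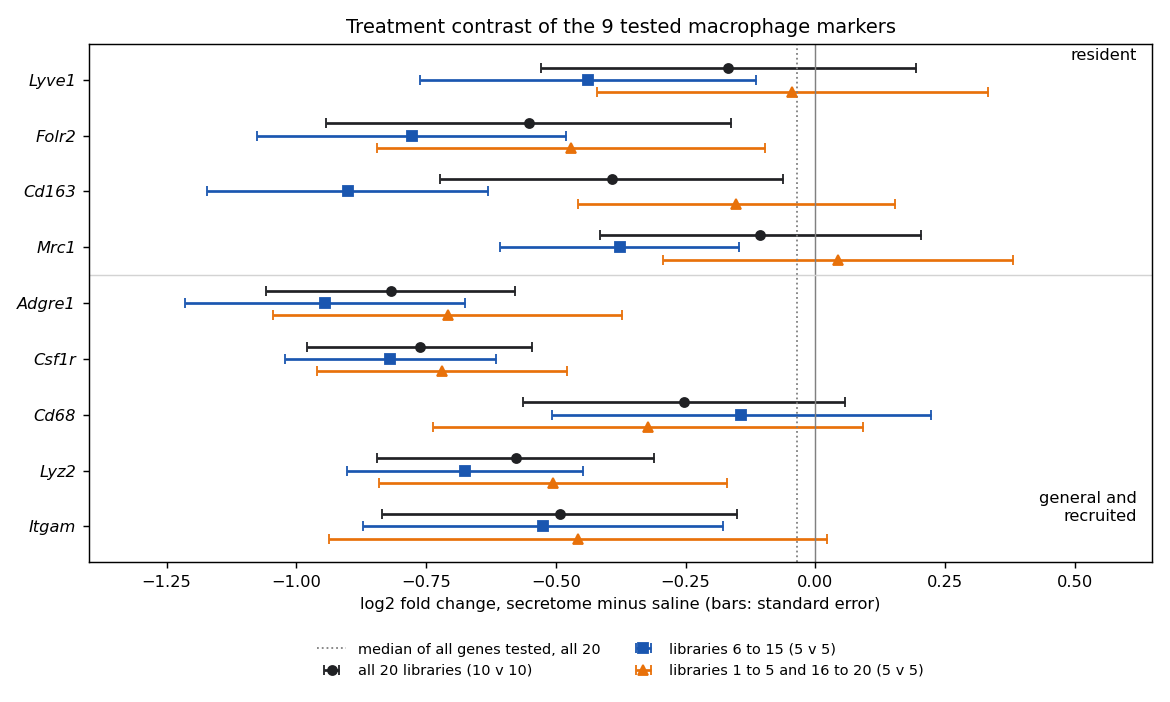
Log2 fold change (secretome minus saline, x axis) of the 9 tested members (y axis), with bars of 1 standard error, in all 20 libraries (circles), in libraries 6 to 15 (squares) and in libraries 1 to 5 and 16 to 20 (triangles). Adgre1 and Csf1r sit between -0.94 and -0.71 in each comparison, whereas Mrc1 ranges from -0.38 in libraries 6 to 15 to 0.04 outside them.

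Csf1r, the receptor that macrophages need to survive, had 19.98 ± 7.23 CPM after saline and 11.8 ± 4.39 CPM after secretome (mean ± SD, n = 10 mice each). The saline libraries ran from 10.6 over a median of 18.8 to 32.3 CPM, and the secretome libraries from 7.34 over 9.81 to 20.2 CPM. In all, 9 of 10 secretome libraries were below the saline median, but the ranges overlapped. The log2 fold change was -0.76 (standard error 0.216, unadjusted p = 0.00188, adjusted p = 0.15 in edgeR). Within libraries 6 to 15, the saline values were 18.7, 11.6, 10.6, 24.6 and 13.9 CPM and the secretome values 8.75, 9.83, 8.65, 7.55 and 9.78 CPM. There all 5 secretome libraries were below all 5 saline libraries, and the log2 fold change was -0.82 (standard error 0.203, unadjusted p = 0.00125, adjusted p = 0.398 in edgeR). Csf1r was the single member past the false discovery rate under any alternative, with DESeq2 over all 20 libraries (log2 fold change -0.74, adjusted p = 0.0455). DESeq2 passed 216 genes there, where edgeR passed 1. Within libraries 6 to 15, Csf1r was not past it in DESeq2 (adjusted p = 0.0629). Its exons share 873 bases with Hmgxb3 on the opposite strand.

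Adgre1, the F4/80 antigen, had the lowest log2 fold change of the 9 members tested in edgeR, -0.82 (standard error 0.24, unadjusted p = 0.00238, adjusted p = 0.153 in edgeR). Its level was 5.99 ± 2.16 CPM after saline and 3.40 ± 1.33 CPM after secretome (n = 10 each), and every secretome library was below the saline median of 5.69 CPM. The saline libraries ranged from 2.71 to 9.33 CPM and the secretome libraries from 1.24 to 5.63 CPM, with a median of 3.27. In libraries 6 to 15 the saline values were 5.66, 4.74, 2.71, 8.27 and 6.62 CPM and the secretome values 2.92, 2.79, 2.11, 4.18 and 2.48 CPM. These groups overlapped through saline replicate 8 at 2.71 CPM, and the log2 fold change was -0.94 (standard error 0.27, unadjusted p = 0.00349, adjusted p = 0.412 in edgeR).

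Lyz2, which encodes the lysozyme of myeloid cells, had 54.3 ± 23.7 CPM after saline and 36.4 ± 19.7 CPM after secretome. The saline libraries spanned 35.6 to 108.7 CPM (median 44.3) and the secretome libraries 17.9 to 82.2 CPM (median 26.7), so they overlapped widely. The highest of each treatment were saline replicate 3 and secretome replicate 8, both among the 3 libraries with the highest neutrophil list. The log2 fold change was -0.58 (standard error 0.267, unadjusted p = 0.0424, adjusted p = 0.299 in edgeR). With the 3 libraries left out it was -0.78 (unadjusted p = 0.000333), and within libraries 6 to 15, which hold none of the 3, it was -0.67 (unadjusted p = 0.0117, adjusted p = 0.449 in edgeR) and -0.46 without saline replicate 9. Lyz1, its near-identical paralog with 96.0% identity over the aligned transcript, had 2.38 ± 0.969 and 1.55 ± 0.719 CPM. No stretch of 150 bases, the length of a read, was the same in both transcripts.

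Cd68 and Itgam had lower means after secretome with wide spreads. Cd68, a glycoprotein of macrophage lysosomes, had 3.44 ± 1.74 and 2.88 ± 1.29 CPM (log2 fold change -0.25, standard error 0.31, adjusted p = 0.713 in edgeR), and its value in libraries 6 to 15 was the nearest to 0 of all members there (-0.14). Itgam, the alpha chain of the integrin that myeloid cells use to adhere, had 2.06 ± 1.55 and 1.46 ± 0.804 CPM (log2 fold change -0.49, standard error 0.341, adjusted p = 0.481 in edgeR). Its highest value was 6.36 CPM in saline replicate 3, against at most 2.18 CPM in the other saline libraries, and without that library its log2 fold change was -0.11. In the annotation 3450 of its 5024 exonic bases overlap Gm49368 on the same strand, which had 0 to 6 counts per library, and how reads on shared bases were assigned is not given in the sources used here.

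Cx3cr1, the receptor for fractalkine, was tested alone because of its low counts. Its level was 0.852 ± 0.398 CPM after saline and 0.454 ± 0.126 CPM after secretome, with 9 of 10 secretome libraries below the saline median (two-sided permutation test with 100000 resamples, p = 0.00784). In libraries 6 to 15 the saline values were 1.25, 0.612, 1.32, 0.832 and 0.522 CPM and the secretome values 0.486, 0.322, 0.412, 0.499 and 0.389 CPM. All 5 secretome libraries were below all 5 saline libraries there (two-sided exact permutation test, p = 0.00794, the smallest that 5 against 5 allows). These p-values are for 1 gene and are not adjusted over genes. With no filter on low counts, its log2 fold change over all 20 libraries was -0.88 (adjusted p = 0.239 in edgeR), below that of Adgre1 in the same fit (-0.80).

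**Figure D2:**
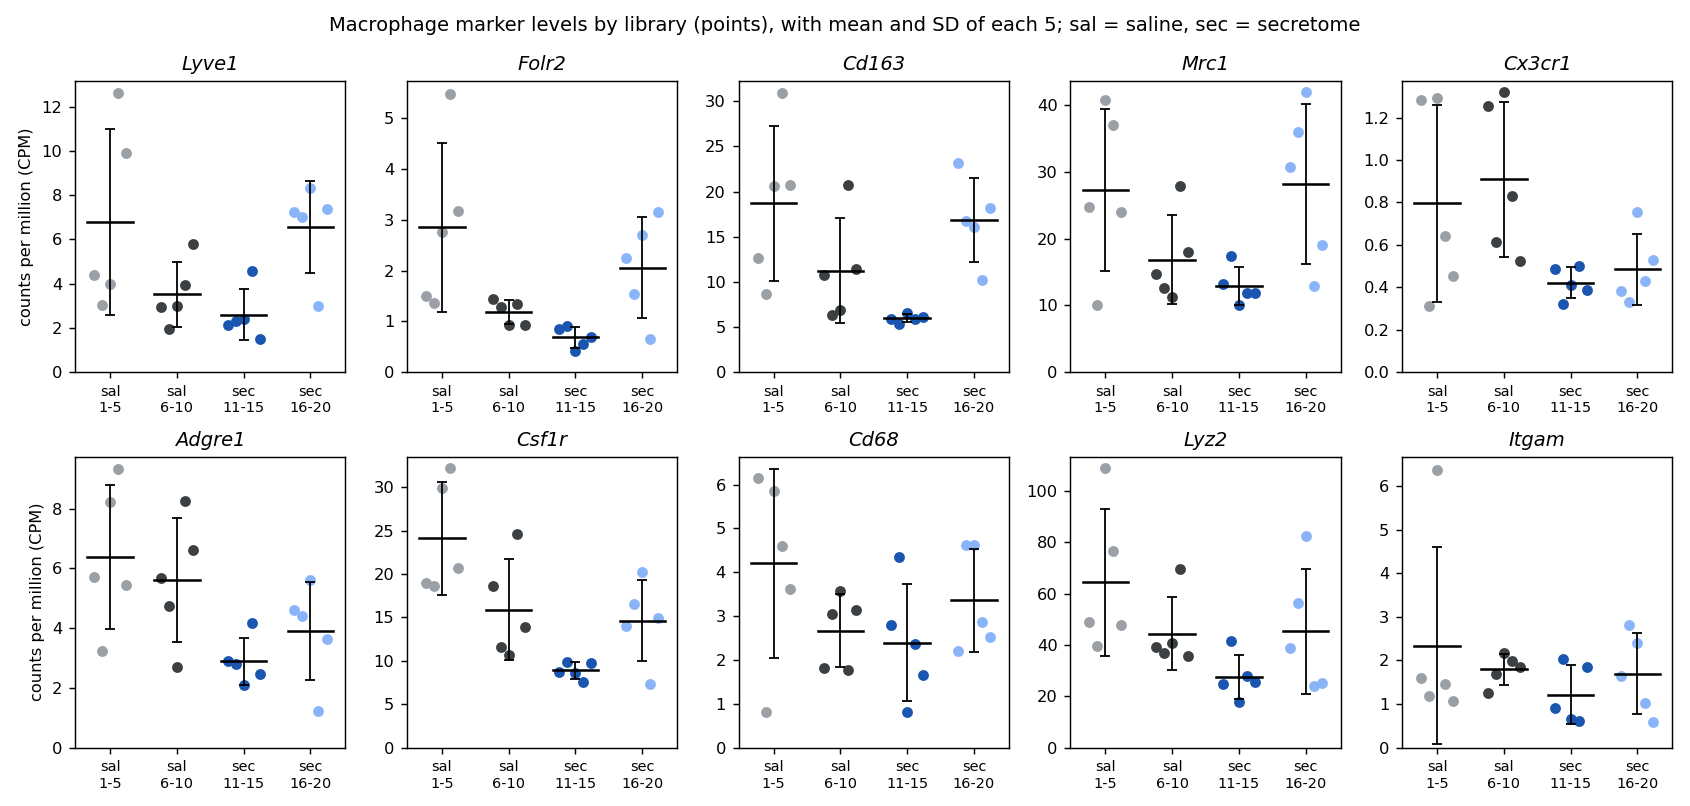
Level of each member in CPM (y axis, from 0) in saline libraries 1 to 5 and 6 to 10 and secretome libraries 11 to 15 and 16 to 20 (x axis), with 1 point per mouse, the mean as a horizontal line and the SD as a bar (n = 5 each). The 4 resident markers, the first panels of the top row, have higher means in libraries 1 to 5 and 16 to 20 than in libraries 6 to 15 of the same treatment, as with Cd163 at 16.9 against 5.96 CPM in secretome.

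The 4 resident members gave smaller differences over all 20 libraries, and their levels varied with the range of library numbers within each treatment. Cd163, the scavenger receptor for haemoglobin, had 14.99 ± 7.95 CPM after saline and 11.4 ± 6.54 CPM after secretome (log2 fold change -0.39, standard error 0.331, adjusted p = 0.575 in edgeR). Its secretome libraries fell into separate ranges by number, with 5.89, 5.37, 6.54, 5.86 and 6.13 CPM in libraries 11 to 15 and 23.1, 16.7, 16.02, 10.2 and 18.2 CPM in libraries 16 to 20. In saline libraries 6 to 10 the values were 10.8, 6.37, 6.88, 20.8 and 11.4 CPM. All 5 secretome libraries of libraries 6 to 15 were below their saline median, 1 of them above the lowest saline library, and the log2 fold change was -0.90 (standard error 0.271, unadjusted p = 0.00536, adjusted p = 0.412 in edgeR). Without saline replicate 9, the library at 20.8 CPM, it was -0.56 within libraries 6 to 15 (unadjusted p = 0.00734 in edgeR), and with voom it was -0.52 there. When the fit of all 20 libraries also held the 3 ranges of numbers as a factor, the log2 fold change of Cd163 was -0.91. Its unadjusted p was 0.00909 and its adjusted p 0.789 in edgeR. Libraries 1 to 5 and 16 to 20 hold 1 treatment each, so that this fit compares the treatments within libraries 6 to 15 again.

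Folr2, the folate receptor beta of resident macrophages, had 2.02 ± 1.43 CPM after saline and 1.37 ± 0.99 CPM after secretome (log2 fold change -0.55, standard error 0.39, adjusted p = 0.493 in edgeR). In libraries 6 to 15 the saline values were 1.44, 1.27, 0.926, 1.33 and 0.929 CPM and the secretome values 0.85, 0.913, 0.412, 0.561 and 0.681 CPM. The groups did not overlap, though the highest secretome library and the lowest saline library were 0.913 and 0.926 CPM, from 17 and 14 counts, and the log2 fold change was -0.78 (standard error 0.298, unadjusted p = 0.0203, adjusted p = 0.453 in edgeR). Libraries 16 to 20 had 2.06 ± 0.99 CPM, above both groups of libraries 6 to 15 in the mean. The gene Gm10602 overlaps 975 of its exonic bases on the opposite strand and had 1.77 ± 0.531 CPM after saline and 1.24 ± 0.455 CPM after secretome. The libraries were stranded, but the strand setting used in counting is not given in the sources used here.

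Lyve1 and Mrc1 differed least. Lyve1, the hyaluronan receptor, had 5.15 ± 3.44 and 4.58 ± 2.64 CPM, and 5 of 10 secretome libraries were below the saline median (log2 fold change -0.17, standard error 0.361, adjusted p = 0.844 in edgeR). Mrc1, the mannose receptor, had 22.1 ± 10.8 and 20.5 ± 11.5 CPM, and 7 of 10 were below (log2 fold change -0.11, standard error 0.309, adjusted p = 0.889 in edgeR). The comparison within libraries 6 to 15 gave log2 fold changes of -0.44 for Lyve1 (standard error 0.324) and -0.38 for Mrc1 (standard error 0.23), with adjusted p of 0.649 and 0.59 in edgeR. With standard errors of this size, neither a difference nor its absence was shown. Without saline replicate 4, the library with the highest Lyve1 (12.6 CPM), the log2 fold changes over the remaining 19 libraries were 0.084 for Lyve1 and 0.0076 for Mrc1, and Folr2 was at -0.25.

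Within libraries 6 to 15, 5 of the 9 tested members were lower at an unadjusted p under 0.05 (Folr2, Cd163, Adgre1, Csf1r and Lyz2), beside 4.88% of all genes tested. None passed the false discovery rate, nor did any other gene (0.0%). The groups did not overlap for 2 of the 9, Folr2 and Csf1r, beside 1.09% of all genes tested. The median log2 fold change was -0.67 over the members, -0.61 for the resident and -0.67 for the general markers, and -0.01 over all genes. The resident median was thus near the general one here and above it over all 20 libraries.

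Outside that range, saline libraries 1 to 5 against secretome libraries 16 to 20, 2 of the 9 members were lower at an unadjusted p under 0.05 (Adgre1 at -0.71 and Csf1r at -0.72), beside 11.6% of all genes, and none passed the false discovery rate, which 3.68% of all genes did. The resident median there was -0.10 and the general one -0.51. The difference between the treatment contrasts inside and outside the range was below an unadjusted p of 0.05 for none of the 9 members, beside 11.1% of all genes. It was widest for Cd163 (-0.76, standard error 0.44, unadjusted p = 0.0977, adjusted p = 0.551 in edgeR), so that the resident markers were not shown to differ between the ranges.

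The levels themselves moved with library number in both treatments. The mean CPM of the 4 resident markers was 1.62 to 2.42 times as high in saline libraries 1 to 5 as in 6 to 10, and 2.19 to 3.01 times as high in secretome libraries 16 to 20 as in 11 to 15. For the 6 general markers the ratios were 0.876 to 1.58 and 1.15 to 1.64. These ratios carry no test, because the ranges were seen in the data. Cd163 in secretome was the single case in which the ranges did not overlap.

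Summed per kilobase, the resident markers had 9.28 ± 4.79 CPM per kb after saline and 7.76 ± 4.20 after secretome, and the general markers 49.9 ± 20.6 and 33.4 ± 16.9 CPM per kb. The resident share of both sums was 15.4% ± 4.00 and 18.8% ± 5.69. By range it was 16.8% in saline libraries 1 to 5, 13.9% in saline libraries 6 to 10, 15.3% in secretome libraries 11 to 15 and 22.4% in secretome libraries 16 to 20. The share in libraries 6 to 15 overlapped between treatments, at 11.1% to 17.9% after saline and 11.8% to 18.9% after secretome. Lyz2 makes up most of the general sum, as the scatter of the 2 sums shows along its x axis.

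**Figure D3:**
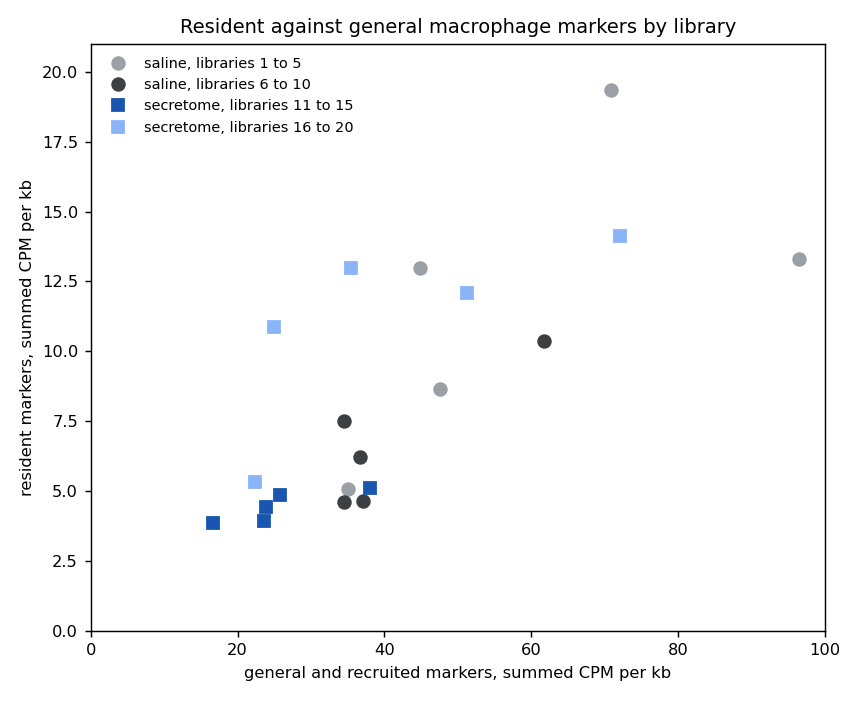
Summed level of the 4 resident markers (y axis) against that of the 6 general and recruited markers (x axis), both in CPM per kb of exon, with 1 point per library and colours for treatment and range of library numbers. Secretome libraries 11 to 15 lie low on both axes (3.87 to 5.11 resident, 16.6 to 38.1 general), and secretome libraries 16 to 20 reach 14.1 on the resident axis.

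Members of the resident list varied together from mouse to mouse. After subtracting the mean of each set of 5 libraries from log2 CPM, the 6 pairs of resident markers had correlations of 0.527 to 0.747 over the 20 libraries (median 0.624), the 10 pairs of tested general markers 0.11 to 0.809 (median 0.513) and the 20 pairs across the lists -0.178 to 0.859 (median 0.529). The highest pair of all was thus across the lists, Mrc1 with Lyz2 (0.859), and close to it Mrc1 with Adgre1 (0.857). The lowest pair was Itgam with Lyve1 (-0.178), and Itgam had 0.104 to Folr2 and 0.115 to Cd163. Cd68 had 0.0952 to Cd163 and 0.11 to Csf1r, but 0.575 to Mrc1 and 0.529 to Lyz2. Points in these correlations share libraries and their scaling, and they are given as a description.

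The 2 genes whose pattern was most like that of each tested member were named by the same correlation over 20 libraries. Csf1r was nearest to Pf4 (0.93) and C1qa (0.908), and Adgre1 to Kctd12 (0.911) and C1qa (0.901). Lyz2 was nearest to Fcgr2b (0.93) and Slc11a1 (0.916). Mrc1 was nearest to Fcgr3 (0.897) and Kctd12 (0.889), and Itgam to Pirb (0.908) and Plek (0.896). C1qa encodes a chain of complement C1q, and Fcgr2b and Fcgr3 encode receptors for immunoglobulin G. Folr2 was nearest to Cpa3 (0.818) and Kit (0.799), which are genes of mast cells. Cd163 was nearest to Vim (0.878) and Foxred2 (0.834), Lyve1 to Sema3d (0.874) and Hnrnph1 (0.835), and Cd68 to Ttc17 (0.91) and Hif1a (0.906). Sema3d, like Lyve1, is also in the list of lymphatic endothelium used below.

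Of the growth factors and chemokines that act on macrophages and their receptors, 9 of 11 genes were tested, and 3 were lower at an unadjusted p under 0.05 over all 20 libraries, with none higher, beside 9.21% of all genes. In libraries 6 to 15, 2 were lower, Csf1r and Csf2ra (-0.99), beside 4.88% of all genes. Csf1r, already counted among the members, was also 1 of the 3. Csf2ra, the alpha chain of the GM-CSF receptor, had 8.00 ± 7.79 and 3.66 ± 1.93 CPM (log2 fold change -1.12, unadjusted p = 0.0102, adjusted p = 0.205 in edgeR). Il34, which encodes the other ligand of Csf1r, had 3.98 ± 0.742 and 3.13 ± 0.962 CPM (log2 fold change -0.34, unadjusted p = 0.0424, adjusted p = 0.299 in edgeR). Csf1 itself had 23.7 ± 11.3 and 20.4 ± 8.56 CPM (log2 fold change -0.22, adjusted p = 0.692 in edgeR). The log2 fold changes of the rest were -0.45 for Csf2rb, -0.42 for Cx3cl1, -0.52 for Ccl7, -0.23 for Ccl2 and 0.04 for Ccr2. Their adjusted p were 0.593, 0.351, 0.685, 0.858 and 0.967 in edgeR. Ccr2 is the receptor that brings monocytes out of the bone marrow. Csf2 had at most 7 counts in a library and was not tested.

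Other macrophage genes were described by list, with counts at an unadjusted p under 0.05. Of all genes tested, 9.21% were lower over all 20 libraries and 4.88% within libraries 6 to 15. No gene of these lists, nor of those of other cells below, passed the false discovery rate in either comparison in edgeR. Of 16 tested genes of resident macrophages beyond the members, 7 were lower over all 20 libraries (median log2 fold change -0.57) and 9 within libraries 6 to 15 (median -0.67). They included C1qc, a chain of complement C1q, at 11.02 ± 5.70 and 5.63 ± 3.01 CPM (log2 fold change -0.97, unadjusted p = 0.00797, adjusted p = 0.195 in edgeR), and Fcgrt, the neonatal Fc receptor, at -0.52 (adjusted p = 0.203 in edgeR). Each was below the saline median in 10 of 10 secretome libraries, and within libraries 6 to 15 the log2 fold change was -1.05 for C1qc and -0.25 for Fcgrt (unadjusted p = 0.00788 and 0.2 in edgeR). Of 19 tested general macrophage genes, 6 were lower over all 20 libraries (median -0.26) and 9 within libraries 6 to 15 (median -0.41). The resident median was thus below the general one in these wider lists. Among the members it was above it over all 20 libraries (-0.28 and -0.58). The protease cathepsin S (Ctss) had 9.06 ± 5.53 and 4.48 ± 2.68 CPM (log2 fold change -1.01, adjusted p = 0.174 in edgeR), with -1.44 in libraries 6 to 15, and Sirpa, the receptor for CD47, had -0.48 (adjusted p = 0.18 in edgeR).

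Among 9 tested transcription factors of the lineage, 1 was lower over all 20 libraries, near the 9.21% of all genes. This was Cebpa at -0.67 (adjusted p = 0.213 in edgeR). Within libraries 6 to 15, 3 were lower and 2 higher, beside 706 lower and 726 higher of all 14471 genes tested. The 2 higher are not among the genes named here, which are the 2 of lowest p over all 20 libraries. The log2 fold change was below 0 for 6 of 9 factors over all 20 libraries (median -0.18). Within libraries 6 to 15 it was below 0 for 7 of 9 (median -0.35). Summed, the list had a median of 696.4 CPM after saline and 752.9 CPM after secretome, with ranges that overlapped. Nr1h3, the liver X receptor alpha, had -0.21 over all 20 libraries (unadjusted p = 0.0548) and -0.38 within libraries 6 to 15 (unadjusted p = 0.00829, adjusted p = 0.441 in edgeR). Of 9 tested genes of monocytes and inflammatory macrophages 1 was lower over all 20 libraries, near the share of all genes, with a list median of -0.05. This was Ly6c2 at -1.08 (adjusted p = 0.307 in edgeR). Within libraries 6 to 15, 2 were lower, Ly6c2 at -1.15 and Plac8 at -1.16, beside 4.88% of all genes. Of 8 tested genes of repair and lipid-laden macrophages, 2 were lower over all 20 libraries, beside 9.21% of all genes. Gpnmb was at -0.60 (unadjusted p = 0.0169) and Fabp5 at -0.56 (unadjusted p = 0.0297), with adjusted p of 0.233 and 0.271 in edgeR. Within libraries 6 to 15, 1 of the 8 was lower, beside 4.88% of all genes. There Gpnmb was at -0.14 and Fabp5 at -0.55 (unadjusted p = 0.625 and 0.11 in edgeR). In saline the median summed level was 696.4 CPM for the transcription factors, 337.2 CPM for the repair list and 402.5 CPM for the other resident list. For the resident and general members it was 39.7 and 73.5 CPM. The part of other cells of the muscle in these lists was not tested. The plot of shares by list sets the counts against the share of all genes tested.

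**Figure D4:**
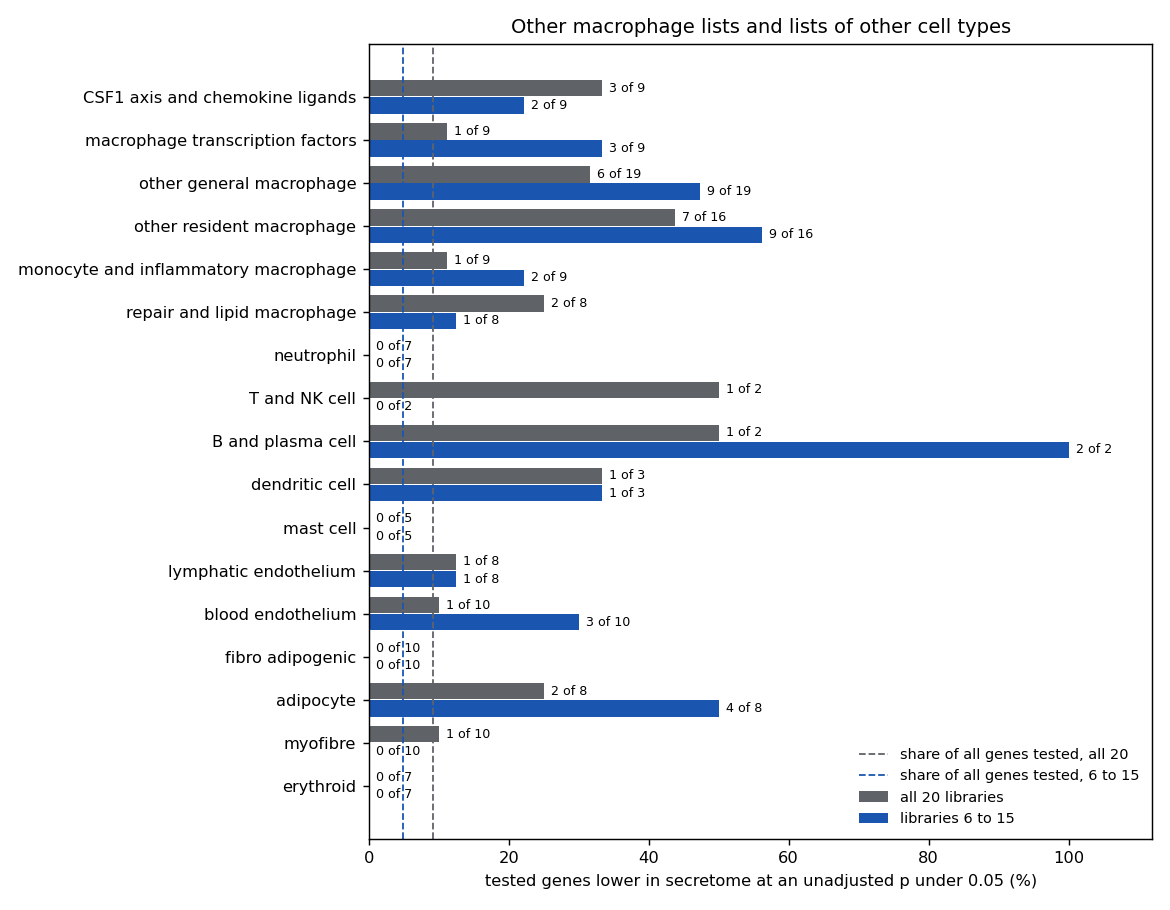
Share of the tested genes of each list that were lower in secretome at an unadjusted p under 0.05 (x axis, percent), for all 20 libraries (grey bars) and libraries 6 to 15 (blue bars), with the counts at the bar ends. Dashed lines mark the share of all genes tested, 9.21% and 4.88%, and the resident list reaches 7 of 16 and 9 of 16.

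Markers of other cells were read beside the members. The neutrophil list had 7 tested genes, with 0 lower and 0 higher in either comparison, and a median of 0.32 over all 20 libraries and 0.14 within libraries 6 to 15. S100a9, the neutrophil alarmin, had 1.88 ± 2.28 and 4.84 ± 8.05 CPM (log2 fold change 1.37, unadjusted p = 0.132, adjusted p = 0.446 in edgeR). Its highest values were 16.7 and 22.8 CPM in secretome replicates 7 and 8, and 5 of 10 secretome libraries were below the saline median. Within libraries 6 to 15 its log2 fold change was -0.008. With the 3 neutrophil-rich libraries left out, a choice made after the data were seen, the log2 fold changes of the 9 tested members were between -0.94 and -0.33, the same 3 were lower at an unadjusted p under 0.05, Lyve1 was at -0.47 and Mrc1 at -0.33, and Csf1r was at -0.90.

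The lists of other cells are set beside the same shares of lower genes over all genes tested, 9.21% over all 20 libraries and 4.88% within libraries 6 to 15. Jchain, which plasma cells use to join antibodies, had 6.13 ± 6.75 and 0.796 ± 0.667 CPM and was below the saline median in 10 of 10 secretome libraries (log2 fold change -2.96, adjusted p = 0.109 in edgeR). It was 1 of 2 tested B and plasma cell genes that was lower, the other being Mzb1 (-0.60, unadjusted p = 0.0501), and both were lower within libraries 6 to 15. Itgax (CD11c), an integrin of dendritic cells and some macrophages, had 2.63 ± 2.52 and 1.03 ± 0.479 CPM (log2 fold change -1.35, adjusted p = 0.15 in edgeR), and it was the single one lower of 3 tested dendritic cell genes. Of 14 T and NK cell genes, 2 were tested. Thy1 was lower over all 20 libraries (-0.69, unadjusted p = 0.041) and was at -0.37 within libraries 6 to 15 (unadjusted p = 0.212 in edgeR). The other, Cd247, was at -0.22 over all 20 libraries (unadjusted p = 0.542 in edgeR). Of 8 adipocyte genes, 2 were lower over all 20 libraries and 4 within libraries 6 to 15, among them Cfd, which encodes adipsin (-0.87 and -0.91). The counts for the lymphatic endothelium were 1 of 8 in each comparison, in a list that also holds the member Lyve1. For the blood endothelium they were 1 of 10 and 3 of 10, with Vwf at -0.31 and -0.59. Of 5 mast cell, 7 erythroid and 10 fibro-adipogenic genes none was lower at that threshold in either comparison, and 1 fibro-adipogenic gene was higher in libraries 6 to 15. Over all 20 libraries the log2 fold change was nevertheless below 0 for 8 of 8 adipocyte genes (median -0.62), 5 of 5 mast cell genes (median -0.50) and 10 of 10 fibro-adipogenic genes (median -0.38), against a median of -0.49 for the members. In libraries 6 to 15 it was below 0 for 8 of 8 (median -0.47), 4 of 5 (median -0.08) and 6 of 10 (median -0.16). The median over all 20 libraries was -0.20 for the erythroid, -0.15 for the blood endothelium, -0.12 for the lymphatic endothelium and 0.14 for the myofibre list. Of the genes most abundant in their list, Zbtb46 (dendritic cell) was at 0.007, Flt4 (lymphatic endothelium) at 0.06 and Plin4 (adipocyte) at -0.006. Csf3r (neutrophil) was at -0.12, Hbb-bs (erythroid) at -0.20, Fabp4 (blood endothelium) at -0.25, Mcpt4 (mast cell) at -0.40 and Gsn (fibro-adipogenic) at -0.50. Of 10 myofibre genes 1 was lower over all 20 libraries, Pvalb at -0.55 (unadjusted p = 0.0357), the single 1 with a log2 fold change below 0. Myh4 was at 0.35 and Ttn at 0.30 (unadjusted p = 0.053 and 0.2 in edgeR). Each was above the saline median in 10 of 10 secretome libraries. Within libraries 6 to 15 Myh4 was at 0.05 and Ttn at 0.01. Outside that range they were at 0.76 and 0.86 (adjusted p = 0.031 and 0.012 in edgeR).

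The summed lists of those cells overlapped between treatments. The neutrophil list ranged from 5.59 to 119.6 CPM after saline and from 5.15 to 131.8 CPM after secretome. The ranges were 2.38 to 28.2 and 1.46 to 4.24 CPM for the B and plasma cell list, 3.31 to 23.3 and 3.22 to 7.02 CPM for the T and NK cell list, and 507.6 to 1169 and 511.8 to 903.4 CPM for the adipocyte list. None of the genes in any list was at 0 in all 20 libraries. The part of these cells in the values of the members was not tested.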

How the data were processed

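Whole-muscle RNA of 20 quadriceps was sequenced, 1 library per mouse, and groups came from the sample titles. The authors deposited raw read counts per gene, without normalization, in 20 columns, all of which were matched to a sample (0 columns unused, 0 identical pairs). Per the labels, cutadapt 1.16, STAR 2.7.9a, featureCounts 1.6.3 and DESeq2 1.34.0 were used with the mouse build GRCm39 (mm39). Symbols, exon lengths and overlaps came from GENCODE M21 on GRCm38, which named 52083 of 55416 genes and at least 98.6% of the counts of each library. Since that annotation is not the one counted on, levels per kb are approximate.

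Genes were filtered with filterByExpr, which kept 14471, scaled by TMM and tested by edgeR 4.0.16 in R 4.3.3 (quasi-likelihood F-test, robust fit), with Benjamini-Hochberg adjustment at 5% over all genes tested. Standard errors were derived by dividing the absolute log2 fold change by the square root of F. Comparisons used all 20 libraries, libraries 6 to 15, and 4 groups of 5 for the contrast outside and for the difference of contrasts. Cx3cr1 was compared by permuting its CPM over mice. Depth per library limits genes with few counts, such as Cx3cr1 with 5 to 27. P-values rest on the spread between mice. The procedure was tested on simulated counts.

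The members and the 17 other gene lists were chosen with earlier results of these data known. The rule for naming took all members and all tested genes of the growth factor and chemokine list. From every other list it took the 2 genes of lowest p over all 20 libraries. For other cell types it also took the most abundant gene. Further genes were the 2 most like each member (mean of at least 1 CPM) and the Lyz2 paralog, which was taken from transcripts. Of the 2 genes of lowest p, not all are printed for other cell types. Alternatives were DESeq2 1.42.0, RLE factors, library totals, no filter, voom of limma 3.58.1, a replicate block, a term for 3 ranges of library numbers, a 10% false discovery rate and each library left out. Leaving out 3 neutrophil-rich libraries together was added after the data were seen.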

Additional observations from a re-analysis of the deposited data

Results flagged for a closer look

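Among 52 sets of 5 or 10 libraries examined (each member, both summed lists and the resident share, per treatment over all libraries and over libraries 6 to 15), 3 had a library far from the rest by Dixon's test, where chance alone would give about 2.6. The log2 level of Lyz2 (CPM plus 0.1) was 6.12 in saline replicate 9 against at most 5.35 in the other saline libraries 6 to 10, with a gap of 0.801 of the range. The summed level of the general and recruited markers in that library, log2 of CPM per kb, was 5.95 against at most 5.22, with a gap of 0.871. Without saline replicate 9 the log2 fold change of Lyz2 within libraries 6 to 15 was -0.46, with an unadjusted p of 0.0312 in edgeR. Itgam was 2.69 on the log2 scale in saline replicate 3 against at most 1.19 in the other saline libraries, with a gap of 0.611. That library also had the highest neutrophil list of the saline group, 119.6 CPM, and the part of neutrophils in its Itgam value was not tested.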

How the results depend on the processing

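Over all 20 libraries the number of genes past the false discovery rate was 1. It was 216 with DESeq2 (70 higher, 146 lower), 0 with library totals, 3 with voom, 0 with a term for the 3 ranges, 3 at a 10% rate, and 0 to 13 with each library left out, the highest without saline replicate 5. Within libraries 6 to 15 it was 0, with 37 in DESeq2 and 11 with no filter on low counts, and 0 with each library left out. The cause of these differences was not tested. Mice of the same replicate number had correlations of deviations from the treatment mean of -0.24 to 0.221, with 2 of 10 over 0.1. These cannot decide whether replicate numbers pair the mice. Each number falls into different ranges of library numbers in the 2 treatments, and the deviations carry the shift between ranges. The replicate block gave 0 genes and 2 members lower at an unadjusted p under 0.05. Within libraries 6 to 15 no paired analysis was possible, because replicate numbers are not shared between the treatments there.

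Of the values of single members under alternatives, 248 over all 20 libraries kept their direction and side of the threshold, 3 changed direction and 1 came past the threshold, and within libraries 6 to 15 the counts were 134 and 1. With each library left out, Lyve1 ranged from -0.31 to 0.084 (the highest without saline replicate 4, where Mrc1 was 0.0076), Mrc1 from -0.29 to 0.037 (the highest without saline replicate 3) and, within libraries 6 to 15, Cd68 from -0.47 to 0.070 (the highest without secretome replicate 3), and these 4 positive values were the reversals. Lyz2 was under an unadjusted p of 0.05 in 11 of 20 fits that left out a library, from -0.80 to -0.41, and Csf1r and Adgre1 in 20 of 20. Scaling by library totals moved the median of all genes from -0.03 to -0.16 over all 20 libraries, and the 9 members stayed below 0 under that scaling and under RLE. The share of lower among genes under an unadjusted p of 0.05 moved with it, from 1333 lower and 944 higher to 2801 and 209.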
